A study of Homo sapiens with 15 samples.

Results

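The respiratory chain genes described here encode protein subunits of complexes I to V. These are NADH dehydrogenase (complex I), succinate dehydrogenase (complex II), the cytochrome bc1 complex (complex III), cytochrome c oxidase (complex IV) and ATP synthase (complex V). The genes were chosen by symbol, with 160 pseudogenes left out and 6 antisense, divergent or read-through genes set aside. The complex I subunit gene NDUFAB1 lies outside the symbol rule and is counted with the carriers below. Of the 60651 genes in the count table, 100 were members: 87 encoded in the nucleus and 13 on the mitochondrial chromosome. The nuclear members were 36 subunits of complex I, 4 of complex II, 10 of complex III, 19 of complex IV (with NDUFA4 and its paralog NDUFA4L2) and 18 of complex V. The mitochondrial chromosome supplied 7 subunits of complex I, 1 of complex III, 3 of complex IV and 2 of complex V. The second table lists 23792 genes, of which 84 were members, all of them nuclear.

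RNA was sequenced in 15 libraries labelled as the human breast cancer line MDA-MB231, grown in DMEM with fetal bovine serum, in 5 groups of 3. The KIF20A_OE libraries go against that label in their marker genes. In the depletion dataset, the CTRL libraries carry the genotype label WT, while the SG1 and SG3 libraries are labelled as KIF20A knockdown. In the overexpression dataset, the EV libraries are labelled WT and the KIF20A_OE libraries are labelled as overexpressing KIF20A, a mitotic kinesin that acts in cytokinesis. The labels do not say how SG1 and SG3 were made, whether they are clones or pools, or whether the 3 libraries of a group stem from different cultures. The p-values therefore measure only the spread between these libraries, which may be technical.

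Electrons from NADH enter the chain at complex I and those from succinate at complex II. Both are passed through coenzyme Q to complex III and by cytochrome c to complex IV, which reduces oxygen. Complexes I, III and IV pump protons, and complex V makes ATP from the gradient. The mitochondrial subunits are made from long polycistronic transcripts that are cut at transfer RNAs, so the cell has to match the products of separate transcription systems. All 4 subunits of complex II are nuclear.

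Depth was 40895819 to 51018667 counts per depletion library and 15971297 to 22182293 fragments per overexpression library. KIF20A stood at 154, 171 and 160 CPM (counts scaled to a library total and adjusted by the trimmed mean of M-values, TMM) in CTRL, at 123, 147 and 91.5 in SG1 and at 86.3, 60.8 and 79.1 in SG3. Its log2 fold change was -0.42 ± 0.18 (SE) in SG1 and -1.10 ± 0.18 in SG3, with adjusted p = 0.913 and 0.33 in edgeR's quasi-likelihood test. In the overexpression table it stood at 101, 143 and 124 FPM (fragments scaled to a library total, like CPM) in EV and at 1348, 269 and 896 in the libraries labelled KIF20A_OE. Those libraries go against their cell line label. CD44, a surface protein abundant in MDA-MB-231, was at 788, 615 and 523 FPM in EV but at 0.125, 0.316 and 1.23 in them, and AXL, a receptor kinase, was at 811 to 1107 FPM against 0.750 to 0.811. All 6 markers listed for the line (VIM, CD44, EGFR, AXL, CAV1 and ZEB1) were called lower there. Of 6 luminal breast markers listed, 5 were tested, and with TMM scaling 2 were called higher and 1 lower. Their sum was 38.5, 23.9 and 45.5 FPM in EV and 29.9, 38.9 and 46.5 in the libraries labelled KIF20A_OE, which overlap. Among them FOXA1, a luminal transcription factor, was at 0.0952 to 0.353 FPM in EV against 16.2 to 19.1. In the depletion dataset all 6 line markers were present and FOXA1 had 0 counts in each library. Of the 6 luminal markers 3 passed the count filter, and the luminal sum was 35.7 to 54.8 CPM per library. The first principal component of genes that are no members held 33.4% of their variance and separated CTRL 1, CTRL 2, SG3 2 and SG3 3 from CTRL 3, SG1 1, SG1 2, SG1 3 and SG3 1, so it cut across the CTRL and SG3 groups. The labels used here give no reason for it. For some results that move with it, values from within a side are given, but not for every member named.

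Mitochondrially encoded mRNAs were the most abundant members. Set per kilobase of merged exons and averaged over the 9 depletion libraries, MT-CO2, a copper-binding subunit of complex IV, was highest at 3351 CPM per kb, followed by MT-CO1, its catalytic subunit, at 2737 and MT-ATP6, the proton channel subunit of complex V, at 2303. MT-ND4 led complex I at 1889 CPM per kb, and MT-CYB, the only mitochondrial subunit of complex III, was at 879. MT-ND6, the only mRNA here from the other strand, was at 517 CPM per kb. The highest nuclear member, ATP5F1B, the catalytic beta subunit of ATP synthase, was at 287 CPM per kb (254 to 343 over libraries), below every mitochondrial mRNA other than MT-ATP8 at 42.1.

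Among nuclear members, NDUFS5, an accessory subunit, led complex I at 191 CPM per kb, with a complex median of 9.19. SDHB, the iron-sulfur subunit, led complex II at 30.3, and CYC1, the cytochrome c1 haem protein, led complex III at 107. COX8A, the ubiquitous form of a small complex IV subunit, was at 113 CPM per kb. In the overexpression table, which was scaled separately, the leading members were NDUFS5 at 277 FPM per kb, SDHB at 37.7, CYC1 at 93.1, COX7C, a small subunit, at 108 and ATP5F1B at 325. The leading gene was thus the same in both tables for complexes I, II, III and V.

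MT-ATP8 shares the end of its reading frame with the start of MT-ATP6. Its low count is shown beside the stretch that both genes hold, chrM:8527-8572 on the plus strand of GRCh38 (GENCODE 29), read from the reference transcripts. The stretch is 46 of the 207 bases of MT-ATP8. How the counting treated reads over 2 genes is not stated in the labels.
Bases shared by MT-ATP8 and MT-ATP6: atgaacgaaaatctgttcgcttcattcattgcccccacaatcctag

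Several nuclear members had levels per length far below the rest of their complex, which holds for well-known core subunits. NDUFV2, an iron-sulfur core subunit of complex I, had 42 to 112 counts per depletion library, 0.60 CPM per kb against the complex median of 9.19. NDUFA9 was at 0.61, NDUFA13 at 0.68, NDUFS7, another iron-sulfur core subunit, at 1.10 and NDUFB8 at 1.23 CPM per kb. In the annotation 28.4% of NDUFV2 exon bases, 10.6% of NDUFA9, 21.0% of NDUFA13, 49.1% of NDUFS7 and 48.5% of NDUFB8 are also exons of another gene on either strand. On the same strand NDUFS7 shared 0% and NDUFB8 33.8%. Members at higher levels shared bases too: COX8A 34.5% at 113 CPM per kb, NDUFB11 44.9% at 58.2 and NDUFA1 44.5% at 36.6. On the same strand COX8A shared 34.5%, and NDUFB11 and NDUFA1 shared 0%. SDHA, the flavoprotein of complex II, shared 0% and was still at 1.46 CPM per kb, against 30.3 for its partner SDHB. Before division by length SDHA was at 8.93 to 14.7 CPM and SDHB at 69.0 to 92.2. The merged exons used as length can exceed 1 transcript. They hold 8383 bases for SDHA, whose longest coding transcript has 2390, and 2462 against 1153 for SDHB. Near-identical copies of SDHA elsewhere in the genome make its count uncertain. ATP5MF, subunit f of ATP synthase, was at 18.8 to 46.0 CPM in the depletion libraries but at 0.857 to 1.29 FPM in EV, which is labelled as the same line; it shares exons with the read-through gene ATP5MF-PTCD1. The part of the counting, or of the length used, in these low values was not tested.

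Alternative isoforms, several of them tissue-restricted, were at or near 0 while their partners were abundant. COX6A2 and COX8C had 0 counts in all 9 depletion libraries, COX4I2 and ATP5MGL had at most 2, COX7B2 and NDUFA4L2 at most 4, COX7A1 at most 12 and COX6B2 at most 13. A count of 0 allows 3 counts, or 0.0588 to 0.0734 CPM in these libraries. Their partners had group means in CTRL of 135 CPM for COX4I1, 19.0 for COX6A1, 63.5 for COX8A and 69.1 for COX7B. UQCRHL, a retrogene copy of the complex III hinge protein gene UQCRH, was at 3.37 to 5.96 CPM against 65.8 to 107 for UQCRH, and near-identical sequence makes the split uncertain. The 3 genes for the same mature c subunit of the ATP synthase rotor were all present, with CTRL means of 67.9 CPM for ATP5MC1, 82.1 for ATP5MC2 and 152 for ATP5MC3. Counting filters left 78 nuclear and 13 mitochondrial members for testing; the 9 not tested were NDUFA7 and the 8 isoform genes just named as at or near 0.

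The summed mitochondrial mRNAs varied widely between libraries of the same group. Their share of all gene counts was 2.55, 1.14 and 0.962% in CTRL, 2.19, 1.47 and 3.41% in SG1 and 2.03, 1.19 and 0.975% in SG3. The share was highest in SG1 3, and CTRL 1 was higher than SG1 1 and SG1 2, so the groups overlap. Nuclear members took 0.577, 0.598 and 0.641% in CTRL, 0.560, 0.558 and 0.519% in SG1 and 0.530, 0.593 and 0.603% in SG3. Here the SG1 libraries were all below the CTRL libraries, while SG3 overlapped CTRL.

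**Figure D1:**
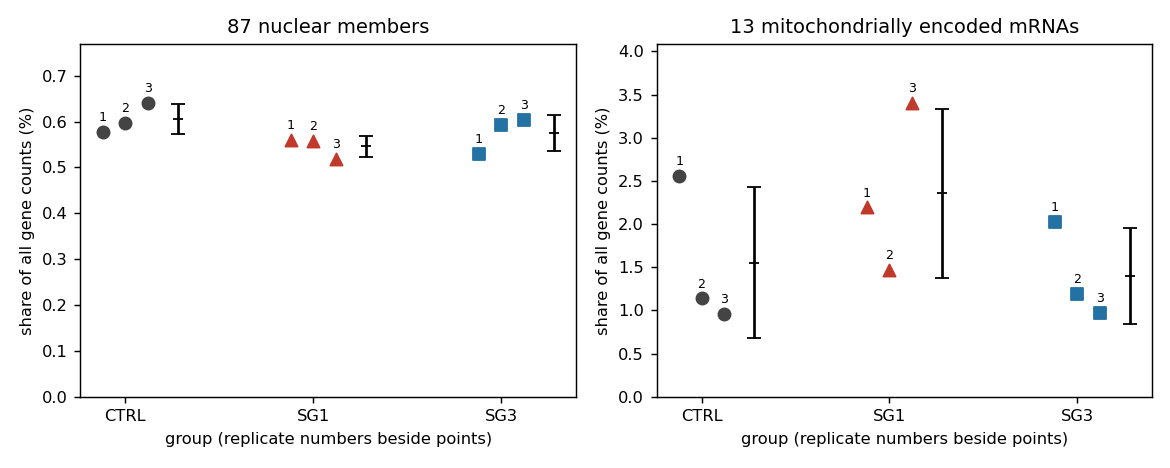
Share of all gene counts (%) held by the 87 nuclear members (left) and the 13 mitochondrially encoded mRNAs (right) in each depletion library, by group, with the mean and SD of 3 libraries beside the points. The nuclear share runs from 0.519 to 0.641%, and the mitochondrial share from 0.962 to 3.41% with CTRL 1, SG1 1, SG1 3 and SG3 1 above 2%.

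MT-CO2 stood at 2859, 1565 and 1531 CPM in CTRL, 3018, 2231 and 3997 in SG1 and 2576, 1587 and 1264 in SG3. CTRL 1 lay inside the SG1 range, and the other CTRL libraries lay below it. Its log2 fold change in SG1 against CTRL was 0.63 ± 0.29 (SE) with unadjusted p = 0.0446 and adjusted p = 0.913 in edgeR, the smallest unadjusted p of the 13. MT-CYB stood at 1371, 682 and 467 CPM in CTRL, 1330, 819 and 2134 in SG1 and 1059, 600 and 560 in SG3. MT-CO1 stood at 6039, 2691 and 2474 CPM in CTRL, 5119, 3533 and 8455 in SG1 and 4474, 2922 and 2275 in SG3. For both genes CTRL 1 was as high as the middle SG1 library or higher.

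MT-ND3, a small membrane subunit of complex I, kept a narrow range where the others did not. It stood at 419, 302 and 402 CPM in CTRL, 393, 358 and 401 in SG1 and 331, 346 and 305 in SG3, a ratio of highest to lowest library of 1.39. The same ratio was 2.87 to 4.94 for the 11 mRNAs other than MT-ND3 and MT-ATP8, all of which were highest in SG1 3. MT-ATP8 had a ratio of 7.42, from 3.01 CPM in CTRL 3 to 22.3 in CTRL 1. As a share of all mitochondrial mRNA counts, MT-ND3 ran from 1.19% in SG1 3 to 4.05% in CTRL 3, while MT-CO1 ran only from 22.8 to 25.01%. MT-ND6 was 1.39 to 1.83% of the summed counts of the 12 mRNAs from the other strand.

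**Figure D2:**
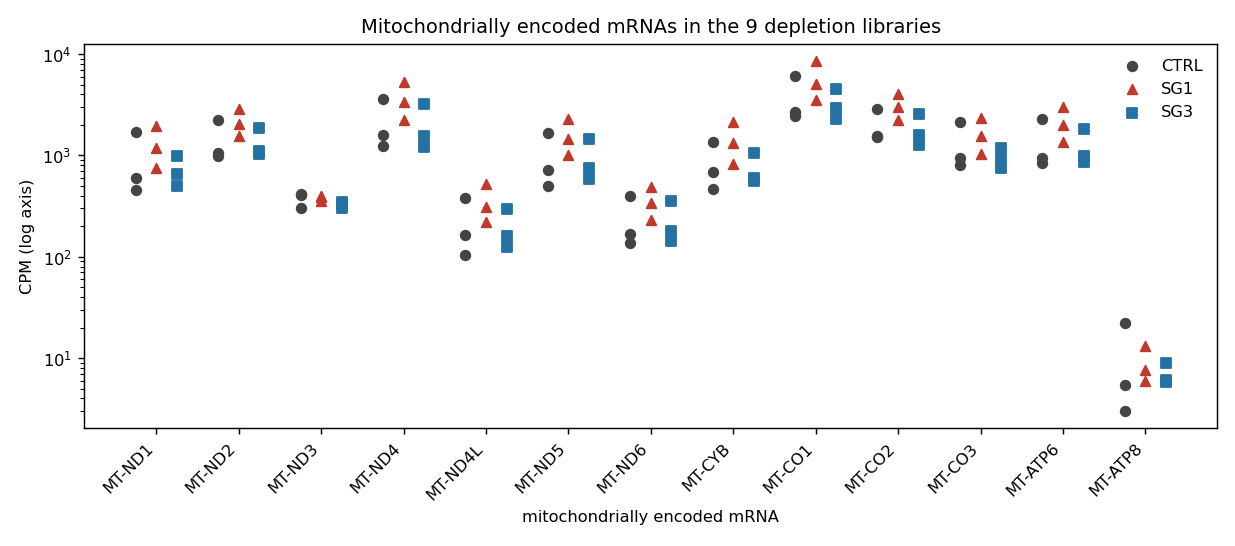
Level of each mitochondrially encoded mRNA in CPM (log axis) in the 9 depletion libraries, 3 points per group. MT-ND3 stays between 302 and 419 CPM, the other 11 spread over ratios of 2.87 to 4.94, and MT-ATP8 is lowest at 3.01 to 22.3 CPM.

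No mitochondrial mRNA was called in SG1 against CTRL: 0 of 13 at adjusted p under 0.05 in edgeR, DESeq2 or limma-voom, where 0% of all 16786 genes tested were called by edgeR. At unadjusted p under 0.05 edgeR gave 1 of 13, which was higher, against 1.58% of all genes higher and 4.59% in either direction. The log2 fold change was positive for 12 of 13, with a median of 0.61 beside -0.0019 over all genes tested. The median was 1.21 without CTRL 1, 0.42 without CTRL 2, 0.36 without CTRL 3 and 0.29 without SG1 3, so it kept its sign but not its size. Without the filter on low counts edgeR called 6 of 13, beside 0.293% of the 31103 genes then tested. MT-ribosomal RNA moved with the mRNAs: MT-RNR2 was at 2447, 1751 and 1536 CPM in CTRL and 2511, 2084 and 3594 in SG1. Its part in the result was not tested.

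In SG3 against CTRL all 13 mitochondrial mRNAs had negative log2 fold changes, with a median of -0.16. edgeR, DESeq2 and limma-voom each called 0 of 13, and 0 of 13 had an unadjusted p under 0.05 in edgeR, against 1.19% of all genes. The sign rested on single libraries: the median was 0.43 without CTRL 1 and 0.026 without SG3 3. Within the sides of the split it was -0.82 for SG3 2 and SG3 3 against CTRL 1 and CTRL 2, and 1.14 for SG3 1 against CTRL 3, where the lone libraries are assumed to vary like the SG1 libraries.

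SG1 and SG3 share the label KIF20A knockdown, and they were also compared directly. All 13 mRNAs had higher means in SG1, with a median log2 fold change of 0.79, and 0 of 13 were called by edgeR, DESeq2 or limma-voom. Unadjusted p was under 0.05 for 5 of 13, all higher in SG1 (1.73% of all genes higher and 4.74% in either direction): MT-CYB at 0.95 ± 0.38, MT-CO1 at 0.82 ± 0.36, MT-CO3 at 0.79 ± 0.34, MT-CO2 at 0.77 ± 0.29 and MT-ND2 at 0.69 ± 0.31 (edgeR, log2 ± SE). MT-ND3 was the 1 whose groups did not overlap, with 358 to 401 CPM against 305 to 346, beside 6.26% of all genes. The median was 0.22 among the libraries on the side of CTRL 3 and 0.44 without SG1 3. Without the low-count filter 11 of 13 were called, beside 0.248% of all genes.

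Nuclear members had mostly lower values in SG1 than in CTRL, by small amounts. The log2 fold change was negative for 69 of 78, beside 50.3% of all genes tested, with a median of -0.17. edgeR, DESeq2 and limma-voom each called 0 of 78. In edgeR 11 of 78 had an unadjusted p under 0.05, all lower, beside 3% of all genes lower. In 27 of 78 every SG1 library lay below every CTRL library, beside 7.21% of all genes, and in 0 of 78 every SG1 library lay above, beside 4.96%. In bulk RNA, fewer cells of a type and less RNA per cell cannot be told apart. The median was -0.23 without CTRL 1 and -0.13 without SG1 3, and -0.25 for SG1 against CTRL 3 alone.

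Complex I held the members with the smallest p. NDUFA1, an accessory subunit of the membrane arm encoded on the X chromosome, stood at 38.0, 41.2 and 25.8 CPM in CTRL, 21.9, 20.1 and 18.0 in SG1 and 17.9, 34.5 and 34.9 in SG3. All SG1 libraries lay below CTRL, but CTRL 3 and SG3 1 lay nearer to SG1 than to the libraries of their own groups. Its log2 fold change in SG1 was -0.81 ± 0.24 (unadjusted p = 0.0041, adjusted p = 0.913 in edgeR), and -0.35 against CTRL 3 alone.

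NDUFS6, an accessory subunit near the NADH-oxidising module, stood at 48.6, 47.8 and 35.1 CPM in CTRL, 31.7, 26.9 and 22.5 in SG1 and 24.5, 43.4 and 43.2 in SG3, with a log2 fold change in SG1 of -0.70 ± 0.22. NDUFB8, an accessory subunit of the membrane arm, stood at 3.88, 3.46 and 1.79 CPM in CTRL, 1.29, 1.58 and 1.51 in SG1 and 1.77, 3.47 and 3.30 in SG3, with a log2 fold change of -1.06 ± 0.34. Both repeated the order seen for NDUFA1, with CTRL 3 and SG3 1 near SG1, and within that side their values were -0.36 and -0.28. NDUFV1, which binds NADH, stood at 148, 148 and 112 CPM in CTRL and 104, 92.0 and 94.5 in SG1. In SG3 it ran from 83.4 CPM in SG3 1 to 150 in SG3 2, the lowest and highest of all depletion libraries. In all, 12 of 35 complex I members had SG1 wholly below CTRL, beside 7.21% of all genes, and 30 of 35 had negative values, beside 50.3%.

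The 3 nuclear members with the smallest p among positive values were also in complex I. NDUFB4, an accessory subunit, stood at 43.7, 50.1 and 63.6 CPM in CTRL and 59.1, 64.1 and 51.4 in SG1, which overlap, and its log2 fold change of 0.15 was -0.11 against CTRL 3 alone. NDUFS1, the large iron-sulfur core subunit, stood at 87.8, 81.5 and 95.3 CPM in CTRL and 96.9, 104 and 87.7 in SG1, a log2 fold change of 0.13. NDUFV2, at the low level given above, had 0.29, which was -0.015 without SG1 3.

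Complex II subunits stayed close together: log2 fold changes in SG1 ran from -0.14 to -0.07 and in SG3 from -0.11 to -0.04. SDHB stood at 70.7, 70.1 and 92.2 CPM in CTRL, 76.1, 75.9 and 69.8 in SG1 and 74.1, 69.0 and 72.6 in SG3, and the groups overlap. SDHC and SDHD, the membrane anchors, also overlapped, with CTRL at 72.9 to 92.1 and 72.6 to 101 CPM and SG1 at 68.9 to 81.0 and 71.3 to 83.4. Complex III had 9 of 10 negative values in SG1, beside 50.3% of all genes, with a median of -0.18. Its UQCRH stood at 99.0, 103 and 90.3 CPM in CTRL and 76.1, 74.8 and 72.7 in SG1, which do not overlap (log2 fold change -0.39 ± 0.17). In SG3 it ran from 65.8 CPM in SG3 1 to 107 in SG3 3, the lowest and highest of all depletion libraries. CYC1 stood at 254, 221 and 194 CPM in CTRL, 182, 198 and 169 in SG1 and 165, 245 and 266 in SG3.

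Complex IV and V followed the same direction, with medians of -0.18 over 12 tested members and -0.13 over 17. COX6A1 stood at 21.8, 21.5 and 13.6 CPM in CTRL, 12.9, 10.8 and 9.97 in SG1 and 9.68, 26.5 and 23.3 in SG3. COX8A stood at 76.6, 68.3 and 45.6 CPM in CTRL, 42.4, 43.3 and 33.3 in SG1 and 35.7, 84.3 and 86.4 in SG3. COX5B, a zinc-binding subunit, stood at 67.3, 65.8 and 43.1 CPM in CTRL, 34.8, 39.4 and 34.0 in SG1 and 33.4, 68.3 and 67.1 in SG3. In each of these CTRL 3 and SG3 1 lay nearer to SG1 than the other CTRL and SG3 libraries did. ATP5MF stood at 44.1, 40.8 and 25.6 CPM in CTRL, 23.5, 25.5 and 21.4 in SG1 and 18.8, 44.6 and 46.0 in SG3. ATP5F1B, by contrast, stood at 623, 654 and 797 CPM in CTRL, 651, 700 and 607 in SG1 and 589, 673 and 696 in SG3, and all groups overlap.

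**Figure D3:**
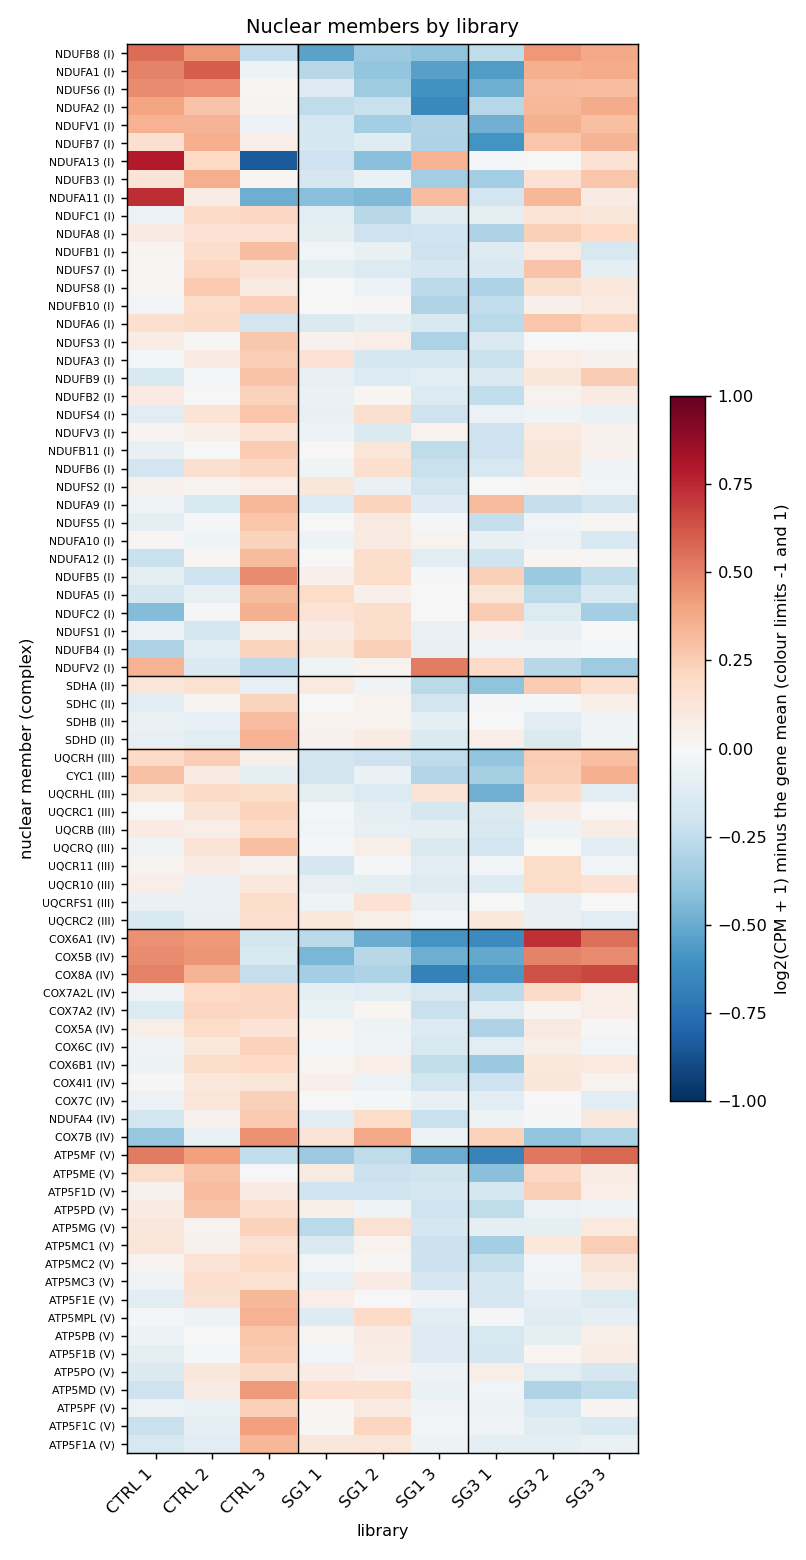
Log2(CPM + 1) of each of the 78 tested nuclear members minus its mean over the 9 depletion libraries, rows grouped by complex and ordered by the SG1 log2 fold change. NDUFB8, NDUFA1, NDUFS6, COX6A1, COX5B, COX8A and ATP5MF are high in CTRL 1, CTRL 2, SG3 2 and SG3 3 and low in the other 5 libraries.

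That order was counted for every member. In 15 of 78 nuclear members (19.2%) the 4 highest libraries were CTRL 1, CTRL 2, SG3 2 and SG3 3, beside 10.2% of all genes tested. They were NDUFA1, NDUFA2, NDUFA6, NDUFB3, NDUFB7, NDUFB8, NDUFS6 and NDUFV1 of complex I, SDHA of complex II, CYC1 and UQCRH of complex III, COX5B, COX6A1 and COX8A of complex IV and ATP5MF of complex V. In 6 of 78 (7.69%) those libraries were the 4 lowest, beside 12.4% of all genes: NDUFA5, NDUFB5, NDUFC2, UQCRC2, COX7B and ATP5F1C. COX7B, for example, stood at 50.6 to 63.8 CPM in those 4 and at 64.6 to 92.3 in the other 5. None of the 13 mitochondrial mRNAs had either order. Of the 11 members with an unadjusted p under 0.05 in SG1, the exception to the 15 was ATP5F1D, the delta subunit, at 94.0, 113 and 96.9 CPM in CTRL and 79.4, 79.4 and 80.8 in SG1.

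Base composition and transcript length moved with this order. GC content of the longest coding transcript had a median of 53.9% in the 15 members high in those 4 libraries, 42.5% in the 6 low in them and 47.4% in the remaining 57. Over 13137 protein-coding genes the medians were 59.7, 40.1 and 49.6% in the same order. Median transcript length was 755 bases in the 15 members and 2567 in the 6. Across the 78 nuclear members, the SG1 log2 fold change had Pearson r = -0.48 and Spearman rho = -0.56 with GC content and Pearson r = 0.45 with log2 length. Across the protein-coding genes the corresponding values were -0.39, -0.52 and 0.24. These correlations are across genes that share the same 6 libraries, so they are descriptions, and the part of base composition in the SG1 difference was not tested.

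**Figure D4:**
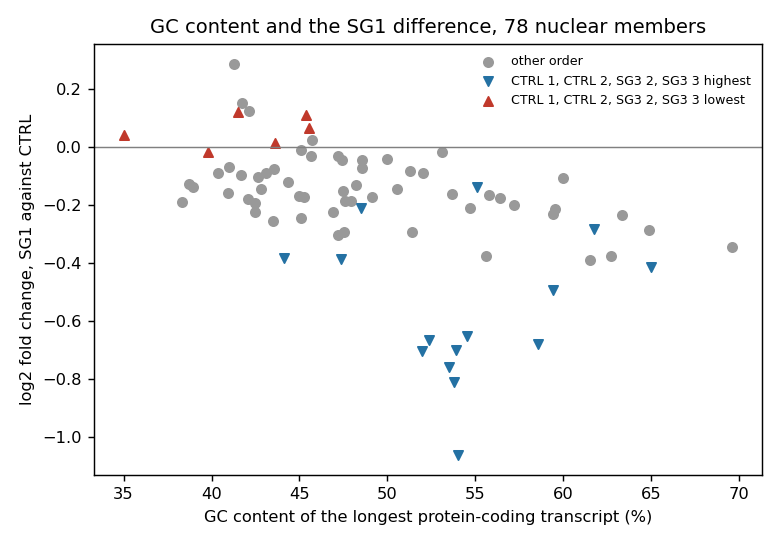
Log2 fold change in SG1 against CTRL (edgeR) plotted against the GC content (%) of the longest coding transcript for the 78 tested nuclear members, with symbols for the order of the libraries. The 15 members highest in CTRL 1, CTRL 2, SG3 2 and SG3 3 lie between 44.1 and 65.0% GC. All have negative values, which their choice nearly fixes, since it puts CTRL 1 and CTRL 2 above every SG1 library.

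Short binding motifs of known regulators of respiratory genes were counted in promoters, 250 bases before to 50 after the start, taken from RefSeq with GRCh38.p14. Of the 100 members, 69 matched an entry. The core of NRF1, GCATGCGC, was present on either strand in 13 of 69 (18.8%), beside 3.27% of all 27305 promoters in the table. The ETS motif CCGGAAG, bound by GABPA among others, was in 20 of 69 (28.99%), beside 10.7%, and the YY1 motif AAGATGGC in 11 of 69 (15.9%), beside 3.03%. At least 1 of these motifs was in 34 of 69 (49.3%), beside 15.6%. By library order, the ETS motif was in 6 of the 13 promoters of members high in CTRL 1, CTRL 2, SG3 2 and SG3 3, in 0 of 4 of those low in them and in 14 of 46 of the remainder. The NRF1 core was in 4 of 13, 1 of 4 and 8 of 46, and the YY1 motif in 1 of 13, 0 of 4 and 9 of 46, in the same order; a match is a description and not a bound site. Of the 3 nuclear members with the smallest p in each direction in SG1 against CTRL, 4 had a match and NDUFB8 and NDUFV2 had none. Stretches of 30 bases round those matches are printed, to show members on both sides of 0, with the match in capitals, read on the strand of the gene. They lie at chrX:119871774-119871803 (plus strand, NDUFA1), chr5:1801350-1801379 (plus, NDUFS6), chr3:120596167-120596196 (plus, NDUFB4, with 2 overlapping matches) and chr2:206159583-206159612 (minus, NDUFS1).
NDUFA1, ETS motif: ttccgtcgcttCTTCCGGagccgtacgtgg
NDUFS6, NRF1 core: ccagaagccgtGCGCATGCgttagcgctaa
NDUFB4, NRF1 core: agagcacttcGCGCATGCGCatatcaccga
NDUFS1, ETS motif: ggctggggccaCTTCCGGcggaactgcggg
NDUFA1 and NDUFS1, with values on opposite sides of 0 in SG1, both hold the ETS motif, and NDUFS6 and NDUFB4, also on opposite sides, both hold the NRF1 core.

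In SG3 against CTRL the nuclear members again had mostly small negative values. The log2 fold change was negative in 70 of 78, beside 53.3% of all genes, with a median of -0.12 beside -0.012. edgeR, DESeq2 and limma-voom each called 0 of 78. In edgeR 1 of 78 had an unadjusted p under 0.05 and was lower (0.578% of all genes lower and 0.614% higher). In 4 of 78 SG3 lay wholly below CTRL (2.38% of all genes) and in 0 of 78 wholly above (2.28%). ATP5PD, subunit d of the ATP synthase stalk, was in both counts: it stood at 36.6, 42.4 and 39.0 CPM in CTRL and 28.9, 33.2 and 33.6 in SG3, with SG1 at 36.1, 33.5 and 29.98. Its log2 fold change was -0.30 in SG3 (unadjusted p = 0.0494). The median was -0.34 for SG3 1 against CTRL 3 and 0.00077 for SG3 2 and SG3 3 against CTRL 1 and CTRL 2, and it was -0.024 without SG3 1.

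ATP5F1E, the epsilon subunit, and ATP5MD, a small subunit associated with the membrane part, were next in SG3, with log2 fold changes of -0.27 and -0.32. ATP5F1E stood at 85.4, 102 and 115 CPM in CTRL and 81.4, 86.2 and 83.3 in SG3, so CTRL 1 lay within the SG3 range. On the positive side COX8A had 0.11, NDUFS1 0.05 and UQCR10, a small subunit of complex III, 0.04. COX8A was -0.34 and UQCR10 was -0.24 for SG3 1 against CTRL 3. Since SG1 and SG3 were compared with the same CTRL libraries, the 2 sets of values are not independent.

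SG1 against SG3 gave a nuclear median of -0.04, with 48 of 78 negative, beside 48.1% of all genes. edgeR, DESeq2 and limma-voom each called 0 of 78, and in edgeR 7 of 78 had an unadjusted p under 0.05, all lower in SG1 (3.01% of all genes). The groups did not overlap for NDUFB8 and NDUFC1, lower in SG1 (4.55% of all genes), and for 4 of 78, NDUFA10, ATP5F1A, ATP5F1C and ATP5F1E, higher in SG1 (6.26% of all genes). COX8A, NDUFB8 and COX6A1 had the smallest p, at -0.79 ± 0.28, -0.96 ± 0.34 and -0.82 ± 0.30. Against SG3 1 alone COX8A was 0.15 and COX6A1 0.21, so their direction in this comparison rested on SG3 2 and SG3 3. On the positive side ATP5MD was at 0.29, COX7B at 0.30 and NDUFV2 at 0.50. The median was 0.12 against SG3 1 and 0.022 without SG1 3. With both knockdown groups averaged and set against CTRL, 73 of 78 nuclear members were negative (53.1% of all genes) with a median of -0.16. In it 0 of 78 were called by edgeR, DESeq2 or limma-voom, and 3 had an unadjusted p under 0.05 in edgeR (0.959% of all genes lower): NDUFA1, NDUFS6 and ATP5PD. ATP5PD was the 1 with both knockdown groups wholly below CTRL (0.441%).

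Listed genes that are not members were mostly near 0 in the depletion comparisons, and edgeR called none of them (0% of all genes were called). Of all genes tested, 50.3% were negative in SG1 and 53.3% in SG3. Of 36 genes for mitochondrial DNA transcription, replication and RNA handling, 22 were positive in SG1 with a median of 0.06, and 9 in SG3 with a median of -0.06. TFAM, which packages and transcribes mitochondrial DNA, had CTRL at 115 to 166, SG1 at 129 to 143 and SG3 at 113 to 129 CPM. HSD17B10, a subunit of mitochondrial RNase P, had -0.46 ± 0.16 and TACO1, a translation activator of MT-CO1, -0.41 ± 0.16 in SG1. Of 48 assembly factors 30 were negative in SG1 (median -0.07) and 33 in SG3 (median -0.04). Of 25 genes for cytochrome c, coenzyme Q and carriers 17 were negative in SG1, led by ATP5IF1, the inhibitor of ATP hydrolysis by complex V, at 41.3, 41.2 and 19.3 CPM in CTRL, 17.7, 15.1 and 13.5 in SG1 and 11.2, 46.0 and 44.3 in SG3. Of 18 tricarboxylic acid cycle genes 11 were negative in SG1 and 15 in SG3. Of 11 nuclear regulators 9 were positive in SG1, while ESRRA, a nuclear receptor for respiratory genes, was at -0.42 ± 0.19 in SG1.

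Nuclear members were higher in the libraries labelled KIF20A_OE than in EV. Their share of all fragments was 0.549, 0.609 and 0.588% in EV and 0.889, 1.02 and 0.936% in the libraries labelled KIF20A_OE, which do not overlap. Of 76 tested, 61 rose and 1 fell at adjusted p under 0.05 in limma on log2(FPM + 1), beside 46.2% of all 15265 genes higher and 23.4% lower (69.6% in all). In 64 the labelled libraries lay wholly above EV (48.9% of all genes) and in 4 wholly below (25.2%), and 6 had negative log2 fold changes (36.6%). The median log2 fold change was 0.74 beside 0.37 over all genes. In these libraries the loss of the line's markers and the raised KIF20A go together, so what belongs to either cannot be told apart.

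Scaling changed these counts. With TMM scaling 40 of 76 rose and 6 fell, beside 34.0% of all genes higher and 32.6% lower, with a median of 0.39 beside 0.035. Of all called genes 51.0% rather than 66.4% were then higher. edgeR on the recovered fragment counts gave 42 higher and 6 lower of 78, beside 33.2% of all genes higher and 30.5% lower, a median of 0.42 beside 0.076, and 52.1% of called genes higher. The median of members minus that of all genes was 0.37, 0.36 and 0.35 in the 3 analyses.

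Complex I had the member with the smallest p. NDUFB9, an accessory subunit of the membrane arm, stood at 26.8, 34.6 and 30.6 FPM in EV and at 114, 131 and 135 in the libraries labelled KIF20A_OE, a log2 fold change of 2.02 ± 0.14 (adjusted p = 4.4e-06, limma) and 1.67 with TMM scaling. NDUFB10, also of the membrane arm, stood at 64.4, 71.1 and 70.2 FPM in EV and 212, 277 and 239 in the others, 1.80 ± 0.13. In both genes the lowest of those libraries was over 2 times the highest EV library. NDUFA1 stood at 50.04, 49.0 and 33.9 FPM against 93.1, 98.3 and 97.9. In all 26 of 33 complex I members rose and 1 fell, beside 46.2% of all genes higher and 23.4% lower. With TMM scaling 21 rose and 4 fell (NDUFS4, NDUFC2, NDUFB5 and NDUFB7), beside 34.0% and 32.6%, and 3 changed sign.

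NDUFS4, an accessory subunit needed for full complex I activity, was the 1 that fell, from 58.7, 55.1 and 59.5 FPM in EV to 40.7, 37.4 and 41.2, by 0.53 ± 0.12 on the log2 scale. NDUFC2, another accessory subunit, had -0.39 (adjusted p = 0.0918, limma) with 15.8 to 17.9 against 10.5 to 15.6 FPM, and -0.72 with TMM scaling (adjusted p = 0.0081), by which it fell. In complex II the subunits parted: SDHC rose from 57.0, 56.3 and 52.7 FPM to 119, 102 and 111, SDHB from 68.8 to 75.3 up to 104 to 122 and SDHA from 9.91 to 10.995 up to 14.6 to 16.5, while SDHD stood at 69.2, 91.1 and 70.3 against 49.3, 66.4 and 64.5. With TMM scaling SDHD fell by 0.70 (adjusted p = 0.0064), and only SDHC of the complex rose.

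All 10 complex III members rose, beside 46.2% of all genes, with log2 fold changes of 0.46 to 1.54. With TMM scaling 5 rose, beside 34.0% of all genes, and all 10 stayed positive. UQCR10 had the largest, 1.54, and CYC1, at 148, 147 and 153 FPM in EV against 186, 261 and 208, had 0.53 ± 0.14, which was 0.18 with TMM scaling (adjusted p = 0.303). In complex IV 9 of 12 rose, beside 46.2% of all genes. With TMM scaling 3 of 12 rose, near the 34.0% of all genes, and 0 fell, beside 32.6% of all genes. In that scaling 3 changed sign. COX5A, a subunit on the matrix side, stood at 69.7, 86.6 and 77.1 FPM in EV and 202, 199 and 216 in the libraries labelled KIF20A_OE (1.39 ± 0.12), whereas NDUFA4, at 83.9, 96.7 and 110 against 74.6, 112 and 116, overlapped.

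In complex V 13 of 17 rose, beside 46.2% of all genes. With TMM scaling 10 rose, beside 34.0% of all genes, while ATP5F1E fell and 3 changed sign. ATP5F1B stood at 478, 625 and 505 FPM in EV and 924, 1037 and 958 in the libraries labelled KIF20A_OE (0.87 ± 0.13). The c subunit genes rose by unequal amounts, from 93.4, 93.3 and 111 FPM to 242, 274 and 275 for ATP5MC3 (1.40 ± 0.12), with 0.99 ± 0.13 for ATP5MC2 and 1.08 ± 0.20 for ATP5MC1. Of the isoforms, COX6B2, COX7A1, COX7B2, COX8C and NDUFA4L2 stayed under the mean of 1 FPM needed for testing in limma. NDUFA4L2 was at 0.0476, 0.0483 and 0 FPM in EV and at 0.541 to 1.69 in the libraries labelled KIF20A_OE. edgeR on the recovered fragments tested it and called it higher (adjusted p = 0.00144), as it did NDUFA11, an accessory subunit of complex I (adjusted p = 0.00763), at 0.0588 to 0.242 FPM in EV against 0.766 to 0.910.

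Outside the members, 30 of 46 assembly factors rose and 3 fell. Of 35 genes for mitochondrial DNA transcription, replication and RNA handling 25 rose and 2 fell. Of all genes 46.2% were higher and 23.4% lower. With TMM scaling the counts were 19 and 5 of 46 and 14 and 3 of 35. The counts that rose were nearer to the 34.0% of all genes higher. Those that fell stood beside 32.6% of all genes lower. COA6, a copper-handling factor of complex IV, stood at 9.57, 10.1 and 10.2 FPM in EV against 38.1, 40.8 and 34.5. Among 26 genes for cytochrome c, coenzyme Q and carriers 19 rose and 1 fell. With TMM scaling 13 rose and 3 fell, beside 34.0% of all genes higher and 32.6% lower. In the tricarboxylic acid cycle list 13 of 18 rose and 1 fell. With TMM scaling 7 of 18 rose, near the 34.0% of all genes, and 3 fell, beside 32.6% of all genes. OGDH, a subunit of the oxoglutarate dehydrogenase complex, fell from 264, 300 and 287 FPM to 68.3, 90.4 and 98.2. Of 11 nuclear regulators 5 rose and 1 fell, a share near that of all genes, with 3 and 3 and a median of 0.037 with TMM scaling. PPARGC1B, a coactivator of respiratory genes, rose from 1.35 to 2.37 FPM in EV to 42.3 to 52.1, while its paralog PPARGC1A was at 3.67 to 6.997 FPM in EV and at 0.689 to 1.44. TFAM was at 94.5 to 143 FPM in EV and 103 to 136 in the libraries labelled KIF20A_OE, and the groups overlap.

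**Figure D5:**
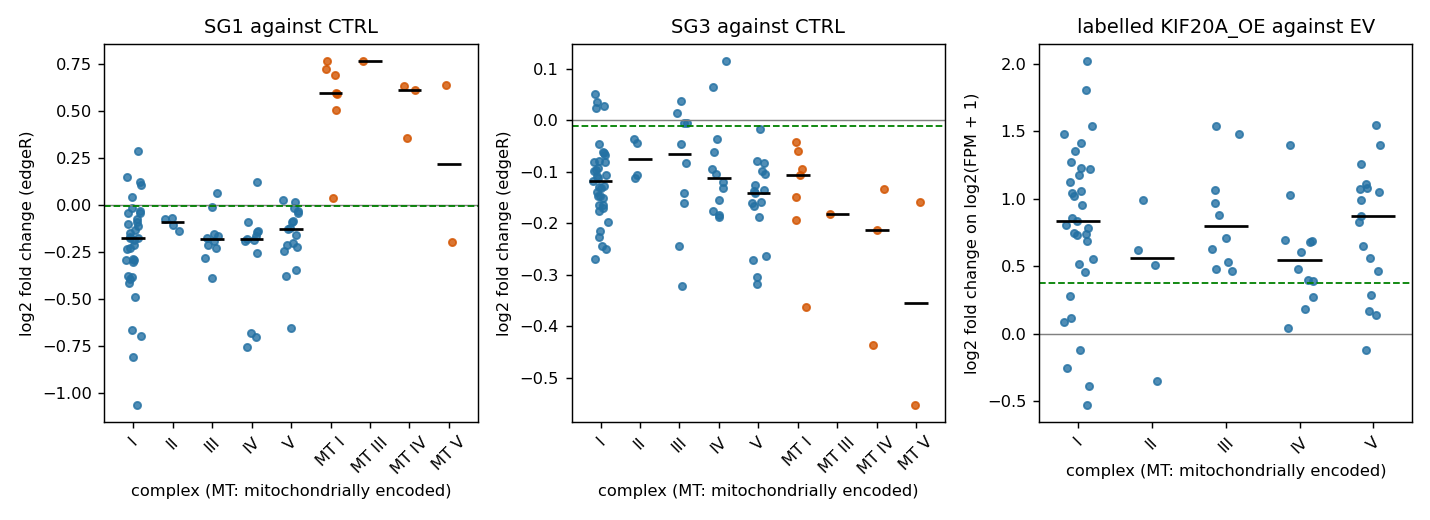
Log2 fold change of each tested member by complex, nuclear in blue and mitochondrially encoded (MT) in orange, in SG1 against CTRL, SG3 against CTRL and the libraries labelled KIF20A_OE against EV, on separate vertical scales. Short black lines are medians and the dashed green line is the median of all genes tested (-0.0019, -0.012 and 0.37).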

How the data were processed

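Counts and FPM values came from separate tables. Raw gene counts of the depletion libraries were deposited by the authors. The overexpression values are called FPKM in the labels, but each column sums to the same total and 100% of the deposited values were whole multiples of 1 fragment within 0.001, so they are a CPM of fragments (FPM), and fragment counts were recovered. Per the submitters' processing notes, the build was hg38 and the tools included STAR 2.7.3a, Trim Galore 0.6.4, limma 3.50.3, Subread 1.6.3 and featureCounts; annotation, strand setting and filters are not stated. RNA was extracted with a column kit, per the labels' protocols.

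Counts were fitted with edgeR 4.0.16 (TMM, filterByExpr, quasi-likelihood test, 1 fit of the 9 libraries). FPM values were fitted with limma 3.58.1 (trend, robust) on log2(FPM + 1) with genes kept from a mean of 1 FPM upward; a fold change on this scale understates low genes. The design had assumed FPKM. P-values were adjusted over all genes tested by Benjamini-Hochberg at 0.05. Both fits were run on simulated data with known changes. The simulated libraries held no split like that of the depletion libraries, so they cannot show how the test does under it. Named genes were KIF20A, mitochondrial mRNAs, the top member per length in each complex, the 3 nuclear members with the smallest p in each direction, isoform sets, complex II and up to 2 genes per pathway list; others were named after their values were seen. Members and lists were chosen with earlier results of these data known. Same-numbered samples did not deviate together (correlations -0.17 to 0.36 and 0.014 to 0.058), so no pairing was used. The ± values are standard errors from the fits and include the spread between libraries. Floors (3 counts) cover counting error only. GC content, lengths and exon overlap came from GENCODE 29. Alternatives were DESeq2 1.42.0, limma-voom, other scalings, filters and pseudocounts, and leaving out each library.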

Additional observations from a re-analysis of the deposited data

How the results depend on the processing

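In the depletion fits, the counts of members called stayed at 0 with DESeq2, limma-voom, library totals in place of TMM, halved counts and each library left out. Without the low-count filter edgeR called 5 nuclear and 6 mitochondrial members in SG1 against CTRL (91 of 31103 genes) and 3 and 11 in SG1 against SG3 (77 of 31103 genes); the cause was not tested. DESeq2 called 3, 4, 5 and 5 of all genes in the 4 comparisons, where edgeR called 0. Within the sides of the library split, chosen after seeing the data, the mitochondrial median in SG1 against CTRL was 1.40. For SG3 against CTRL the nuclear median was -0.34 and 0.00077 and the mitochondrial median 1.14 and -0.82, and for SG1 against SG3 the nuclear median was 0.12; fewer samples enter these fits. With each library left out, the nuclear median ran from -0.23 to -0.13 (SG1 against CTRL), -0.17 to -0.024 (SG3 against CTRL), -0.13 to 0.022 (SG1 against SG3) and -0.21 to -0.11 (mean), and the mitochondrial one from 0.29 to 1.21, -0.52 to 0.43, 0.44 to 1.12 and -0.029 to 0.84.

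Values that changed sign: in SG1 against CTRL NDUFB4 was -0.11 (side of CTRL 3) and NDUFV2 -0.015 (without SG1 3). In SG3 against CTRL COX8A was -0.079, -0.06 and -0.089 without CTRL 3, SG3 2 or SG3 3 and -0.34 on the side of CTRL 3, and UQCR10 was -0.028 and -0.012 without SG3 2 or SG3 3 and -0.24 on that side. In SG1 against SG3 on that side COX8A was 0.15, COX6A1 0.21, COX7B -0.062 and NDUFV2 -0.00365. In the mean comparison NDUFB4 was -0.038 and UQCRC2 -0.046 without CTRL 1. The highest values of these with 1 library left out were 0.62 for NDUFV2 in SG1 against CTRL (without CTRL 1), 0.45 and 0.17 for COX8A and UQCR10 in SG3 against CTRL (without SG3 1) and 0.24 for NDUFB4 in the mean comparison (without CTRL 3). The cause was not tested.

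For the libraries labelled KIF20A_OE against EV, the nuclear median was 0.42 in edgeR, 0.39 with TMM scaling and 0.68 to 0.83 with each library left out, and 60 to 63 members were called. The replicate block gave 0 calls in each depletion comparison and 10530 instead of 10621 genes in the overexpression table, with 62 members called with and without it. With 3 libraries per group, the pooled SD of the library medians was 0.102 for nuclear and 0.647 for mitochondrial members in the depletion dataset and 0.0723 in the overexpression dataset, which limits what these comparisons can show.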
